A study of Homo sapiens with 4 samples.

Results

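Small nuclear, nucleolar and 7SL-type RNAs were examined in HCT116, a human cell line established from a colon carcinoma, after knockdown of RBM25. Members were chosen by their summed counts: genes whose deposited biotype was snRNA, snoRNA, scaRNA or misc_RNA and whose counts summed to at least 50 over the 4 libraries. The rule used the sum and not the difference between the groups, so the summed abundance of the members is a description. Of 58735 genes listed, 5122 had 1 of these biotypes, 1193 of them had at least 1 count, and 25 were members. These were 7 of 2221 misc_RNA genes, 3 of 1909 snRNA genes, 15 of 943 snoRNA genes and 0 of 49 scaRNA genes. Just inside the threshold were SNORD62B with 50 counts and RF02038 with 52, and just outside it were SNORA79B and RNY4P10 with 47 each.

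The control_sh group was HCT116 carrying a control shRNA and the RBM25_sh group was HCT116 carrying an shRNA against RBM25, with 2 libraries of total RNA each. RBM25 encodes an RNA-binding protein of the splicing machinery that associates with the U1 snRNP. The labels name 1 cell line and give neither the number of shRNA sequences, nor how they were delivered, nor the time after knockdown. They do not say whether the replicates came from separate cultures, so each p-value rests on library spread alone, and that spread may be technical.

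Small nuclear RNAs form the spliceosome together with proteins and base pair with splice sites and with each other. Box C/D small nucleolar RNAs, named SNORD, guide ribose methylation of ribosomal RNA, and box H/ACA small nucleolar RNAs, named SNORA, guide its pseudouridylation, while small Cajal body RNAs, the scaRNA biotype, guide the same changes in snRNAs. Most human snoRNAs lie in introns of host genes and are released from the spliced-out intron. The misc_RNA biotype holds 7SL RNA, the scaffold of the signal recognition particle that brings ribosomes to the endoplasmic reticulum. It also holds Y RNAs, bound by the Ro and La proteins, and many pseudogenes of 7SK RNA, which holds the elongation factor P-TEFb inactive.

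The 25 members comprised 9 SNORD genes, 5 SNORA genes, 2 RN7SL genes, 1 RN7SK pseudogene and 3 RNU6 pseudogenes. A further 5 were listed by Rfam family number, namely 2 copies of RF00019 (Y RNA), 1 copy of RF00156 (a snoRNA family) and the pair RF02038 and RF02039. RN7SL2 held 86.1% of all counts of the members, a share carried by 1 library. It was 94.1% in control_sh replicate 2, between 8.30 and 29.3% in the other 3 libraries, and 17.9% over those 3 together. RN7SL2 (ENSG00000274012) lies at chr14:49862550-49862849 on the minus strand, in an intron of the lincRNA AL627171.2. RN7SL3 (ENSG00000278771) lies at chr14:49853616-49853914 on the minus strand and overlaps no other gene. All positions are on GRCh38. Of the 50-base stretches of RN7SL2, 86.5% also occurred in another of the 5122 small RNA genes, against 35.2% for RN7SL3, so reads from most of RN7SL2 could belong to other copies. How such reads were assigned is not given in the sources used here.

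Among the U6 pseudogenes RNU6-26P was the most abundant. It lies at chr3:98804978-98805084 on the minus strand in an intron of DCBLD2, which encodes a transmembrane receptor-like protein.

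Sequences are shown for 3 box C/D members, SNORD104 because it stood apart in 1 library and a pair that shares 1 host, with the searched motifs in capitals. SNORD104 (chr17:64146083-64146152, plus strand) lies in an intron of SNHG25, a non-coding host gene. SNORD101 (chr6:132815307-132815379, plus strand) and SNORD100 (chr6:132816802-132816877, plus strand) lie in introns of RPS12, a gene for a protein of the small ribosomal subunit.
SNORD104: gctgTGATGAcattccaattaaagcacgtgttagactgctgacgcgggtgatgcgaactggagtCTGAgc
SNORD101: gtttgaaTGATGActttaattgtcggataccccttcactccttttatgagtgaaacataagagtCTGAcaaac
SNORD100: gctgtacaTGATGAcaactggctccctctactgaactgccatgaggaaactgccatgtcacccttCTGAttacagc
The motifs were TGATGA within the first 20 bases and CTGA within the last 12 bases, the letters of boxes C and D, searched on the RNA's strand only. Both were found in 6 of the 15 snoRNA members, all named SNORD, and in 202 of 943 snoRNA genes (21.4%). All sequences are GENCODE release 29 transcripts.

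Total counts were 15528869 and 16982663 in control_sh replicates 1 and 2, and 15528274 and 16335555 in RBM25_sh replicates 1 and 2. Protein-coding genes held 95.5 to 96.8% of each library. RBM25 itself had 155.3 and 114.9 CPM (counts scaled to the library size, with TMM factors) in the control_sh libraries and 44.0 and 35.7 in the RBM25_sh libraries. It fell by 1.76 ± 0.30 (SE) on the log2 scale, with an edgeR adjusted p of 0.0195, which became 0.119 and 0.202 when RBM25_sh replicate 1 or 2 was left out. Of 8 epithelial markers 7 had counts and CDX1 was at 0, with a summed level of 3602 to 5706 CPM. The 6 fibroblast markers summed to 37.7 to 62.5 CPM with COL1A2 and LUM at 0. The highest of these 6 genes alone had a mean of 46.3 CPM over all libraries. The 5 leukocyte markers summed to 0.506 to 1.81 CPM with CD3E at 0, and the 4 endothelial markers to 0.670 to 2.59 CPM with CDH5 at 0. In bulk RNA, fewer cells with an RNA and less of it per cell cannot be told apart.

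The small RNAs that are most abundant in cells were nearly absent from the tables. A list of 38 RNAs was examined whatever their counts, of which 37 had a gene listed, with RMRP listed under 2 identifiers. Of these 38 genes 25 were at 0 in all 4 libraries, 11 had between 1 and 49 counts, and 2 were members, RN7SL2 and SNORA73B. The genes at 0 included RNU1-1 and RNU2-1, which encode the U1 and U2 snRNAs of the major spliceosome, and RNU11 and RNU12, which encode snRNAs of the minor spliceosome. RN7SK, RN7SL1, the Y RNA genes RNY1, RNY3 and RNY4, and RMRP and RPPH1, the RNAs of RNase MRP and RNase P, were also at 0. A count of 0 allowed up to 3 counts, which was 0.167 to 0.201 CPM depending on the library.

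The 24 genes of spliceosomal and U7 snRNAs in that list held 41 counts together, with at most 10 in a single gene, RNU6-8. All 50-base stretches of 11 of these 24 genes occurred in another small RNA gene, and 7 of the 11 were at 0. RNU7-1, RNU11 and RNU12 were also at 0, and none of their 50-base stretches occurred in another small RNA gene. The rest of the genome was not searched, and the part of multiple matches in the counts of 0 was not tested. SNORD3A, the U3 snoRNA, had 0 and 2 counts in the control_sh libraries and 7 and 4 in the RBM25_sh libraries. SNORD118, the U8 snoRNA, and SNORD13 were at 0. The most abundant scaRNA, SCARNA13, had 11 and 3 counts in control_sh and 13 and 7 in RBM25_sh. Whether poly(A) RNA was selected or ribosomal RNA removed is not given in the sources used here. These values describe what the libraries and their counting held, not the cellular level of such RNAs.

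Whether a small RNA gene had any count went with where it lies. Of 1716 genes in an intron of another gene on the same strand 35.7% had a count, and of 1116 in an intron on the opposite strand only 33.4% did. Of 1749 genes outside other genes 10.0% had a count, and of 541 touching an exon of another gene 6.10% did. Among the members 19 were in same-strand introns, 4 were in introns on the opposite strand only, 1 touched an exon (RF00019 on chromosome 11, with 11 exonic bases of FNBP4) and 1, RN7SL3, was outside other genes. No test was made of these shares, since genes of 1 family or 1 host share sequence and reads. The strand setting of the counting is not given in the sources used here, so reads from a member and from a gene on the other strand cannot be told apart. Whatever that setting, reads from a member in a same-strand intron cannot be told from reads of unspliced host RNA.

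**Figure D1:**
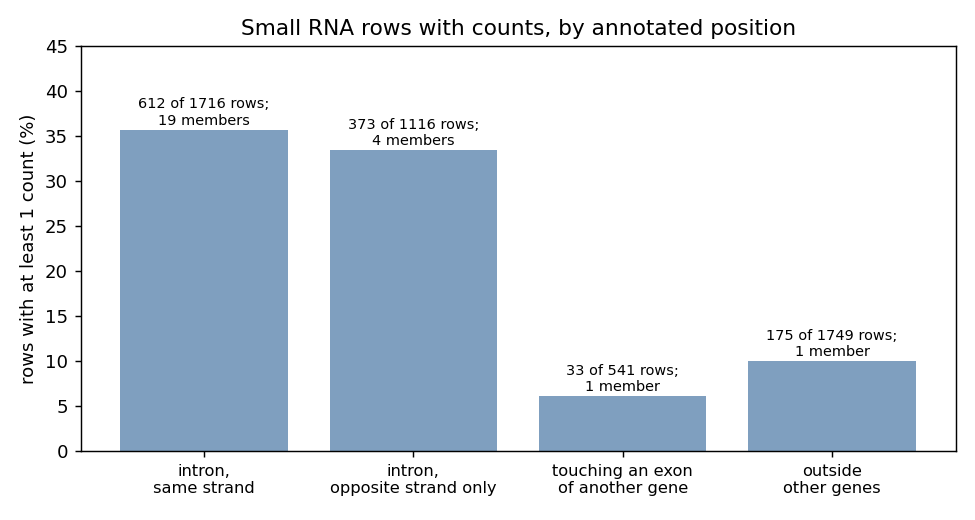
Share of the 5122 small RNA genes with at least 1 count in the 4 libraries together (percent), by annotated position. The bars for introns on either strand reach 35.7% and 33.4%, against 6.10% and 10.0% for genes touching an exon or outside other genes.

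The 20 members with a same-strand host gene had 19 hosts, among them the ribosomal protein genes RPS12, RPL3 and RPS13 and the non-coding snoRNA hosts SNHG3, SNHG17, SNHG25 and ZFAS1. Deposited FPKM divide counts by gene length and make no allowance for fragment length. For members of 68 to 315 bases they give only a rough comparison with a host. Over 22 pairs of a member and a host, the member's mean FPKM was below that of its host in 17 and above it in 5. RPS12 had a mean of 987.5 FPKM, and the 3 members in its introns, SNORA33, SNORD101 and SNORD100, had 18.1, 14.7 and 16.0 FPKM, or 1.49 to 1.83% of it. SNORD83A had 11.3 FPKM, or 2.20% of the level of its host RPL3, a gene for a protein of the large ribosomal subunit. RN7SL2 lay on the other side, with 756.5 FPKM against 0.709 for AL627171.2, as did SNORD104 with 28.3 FPKM against 2.77 for SNHG25. Without control_sh replicate 2 these were 25.4 against 0.677 FPKM and 10.5 against 0.619 FPKM. SNORD17 had 10.3 FPKM against 0.550 for OVOL2, a transcription factor gene, and 19.1 for SNX5, its other host. Among 18 hosts tested, 0 passed edgeR's test, and their log2 fold changes ran from -1.53 to 0.57 with a median of 0.06.

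**Figure D2:**
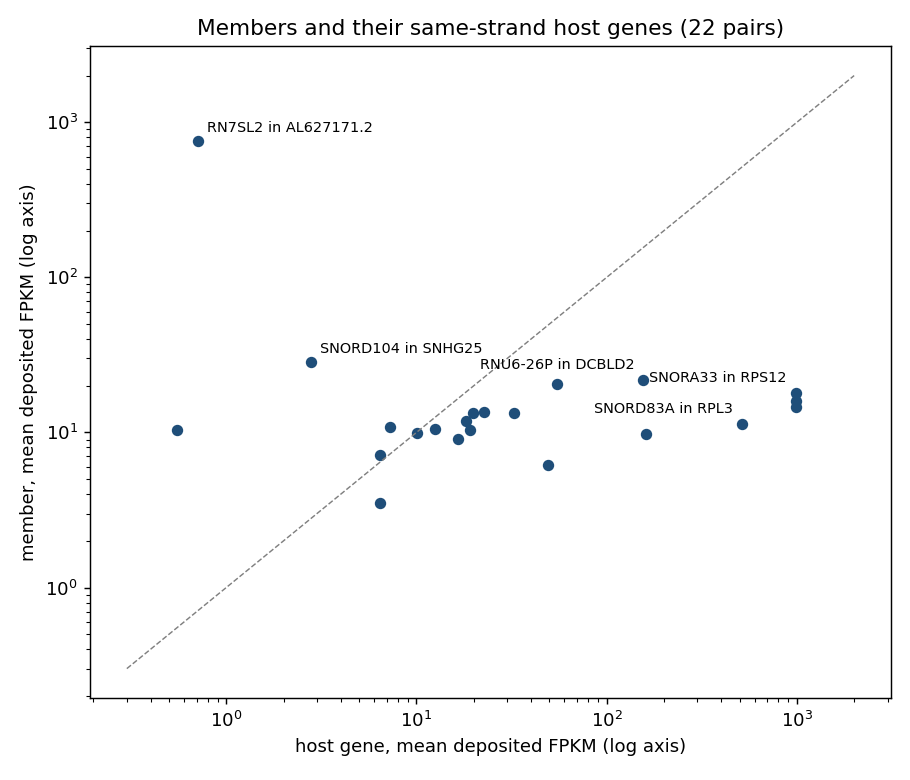
Mean deposited FPKM over the 4 libraries of each member (vertical log axis) and of its same-strand host gene (horizontal log axis), 22 pairs. The dashed line marks equal levels, with 17 pairs below it and 5 above, RN7SL2 and SNORD104 among the latter.

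Among the members 7SL RNA differed most between libraries. RN7SL2 had 80 and 16539 counts in control_sh replicates 1 and 2, and 56 and 231 in RBM25_sh replicates 1 and 2. Control_sh replicate 2 stood far above the other 3 libraries, and the RBM25_sh values lay on both sides of control_sh replicate 1. In that library RN7SL2 reached 922.7 CPM, 0.0974% of all counts and rank 95 among genes by count, against ranks 11301, 11530 and 8821 in control_sh replicate 1 and RBM25_sh replicates 1 and 2. The ratio to the next library, RBM25_sh replicate 2, was 62.7 (95% interval 55.1 to 71.7 from the counts, covering counting error only). Group means were 463.9 ± 648.9 CPM in control_sh and 9.24 ± 7.75 CPM in RBM25_sh (SD, n = 2 each).

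RN7SL3, the other 7SL gene among the members, was also highest in control_sh replicate 2, with fewer counts. Its 0 to 3 counts elsewhere resolve no order among the remaining libraries. It had 3 and 376 counts in the control_sh libraries and 0 and 3 in the RBM25_sh libraries, a ratio of 109.7 between control_sh replicate 2 and the next library (95% interval 37.3 to 534.5). It did not pass the filter on low counts and was not tested. RN7SL3 made up 2.22% of the counts of RN7SL2 and RN7SL3 together in control_sh replicate 2 (95% Clopper-Pearson interval 2.01 to 2.46%) and 3.61% in control_sh replicate 1 (0.752 to 10.2%). In the RBM25_sh libraries the share was 0% (upper bound 6.38%) and 1.28% (0.265 to 3.70%), so the intervals of all 4 libraries overlapped. The pseudogenes RN7SL4P and RN7SL5P, below the threshold for members, had 32 and 33 counts in control_sh replicate 2 and at most 1 in each other library. Of their 50-base stretches 58.1% and 58.8% also occurred in another small RNA gene. Reads from those stretches could belong to other 7SL copies, so these counts are not separate support.

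The test of RN7SL2 between the groups rested on that 1 library. Its log2 fold change in RBM25_sh was -5.65 ± 1.67 (SE), with an unadjusted p of 0.00729 and an adjusted p of 0.0978 by edgeR's quasi-likelihood test. Without control_sh replicate 2 the log2 fold change was 0.87 and the edgeR adjusted p 0.243, so the direction turned. With the trend on GC content removed from each library it was -5.18 with an edgeR adjusted p of 0.0265, again with control_sh replicate 2 in the fit.

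Control_sh replicate 2 also stood apart for other genes. Among 15175 genes with at least 50 counts, 44 were at least 3 times the next library there, with at least 20 counts (0.29%), while 5, 3 and 5 genes met this in control_sh replicate 1 and RBM25_sh replicates 1 and 2. In any library 0.376% of genes met it. RN7SL3 and RN7SL2 had the highest and second highest ratios of the 44, and SNORD104 was also among them. RN7SL3 and SNORD104 had 6 and 35 counts outside control_sh replicate 2, so they met the threshold of 50 only through that library, and nothing is read from their number. The median GC content of the 44 genes was 58.0%, against 48.7% over the 15175 genes, and RN7SL2 had 62.7%. The part of GC content or of the library in the 7SL counts was not tested. The 8 genes for SRP proteins and the SRP receptor summed to 990.9 and 825.1 CPM in control_sh replicates 1 and 2. In RBM25_sh replicates 1 and 2 they summed to 1201 and 1037 CPM. A link between these sums and the 7SL counts was not tested.

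SNORD104 was also high in control_sh replicate 2. It had 7 and 107 counts in the control_sh libraries and 9 and 19 in the RBM25_sh libraries, a ratio of 4.93 to the next library (95% interval 3.01 to 8.51). The other 3 libraries were between 0.443 and 1.21 CPM and the group ranges overlapped. Its host SNHG25 had 0 and 48 counts in control_sh and 4 and 4 in RBM25_sh, a ratio of 9.99 (3.66 to 38.2) in the same library. The log2 fold change of SNORD104 was -1.82 ± 0.93 with an edgeR adjusted p of 0.296, and without control_sh replicate 2 it was 1.02.

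RNU6-26P differed in the other direction. It had 44 and 15 counts in the control_sh libraries and 48 and 43 in the RBM25_sh libraries, so control_sh replicate 2 was the lowest and the other 3 were alike. At 0.837 CPM it was 3.27 times below the next library, a gap of at least 3 times that 1.81% of the 15175 genes had in some library. Its host DCBLD2 was also lowest in that library, with 1368 CPM against 2136 CPM in control_sh replicate 1. The log2 fold change of RNU6-26P was 0.73 ± 0.56 with an edgeR adjusted p of 0.495. It was 0.095 without control_sh replicate 2, and 1.83 with an edgeR adjusted p of 0.0419 without control_sh replicate 1.

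**Figure D3:**
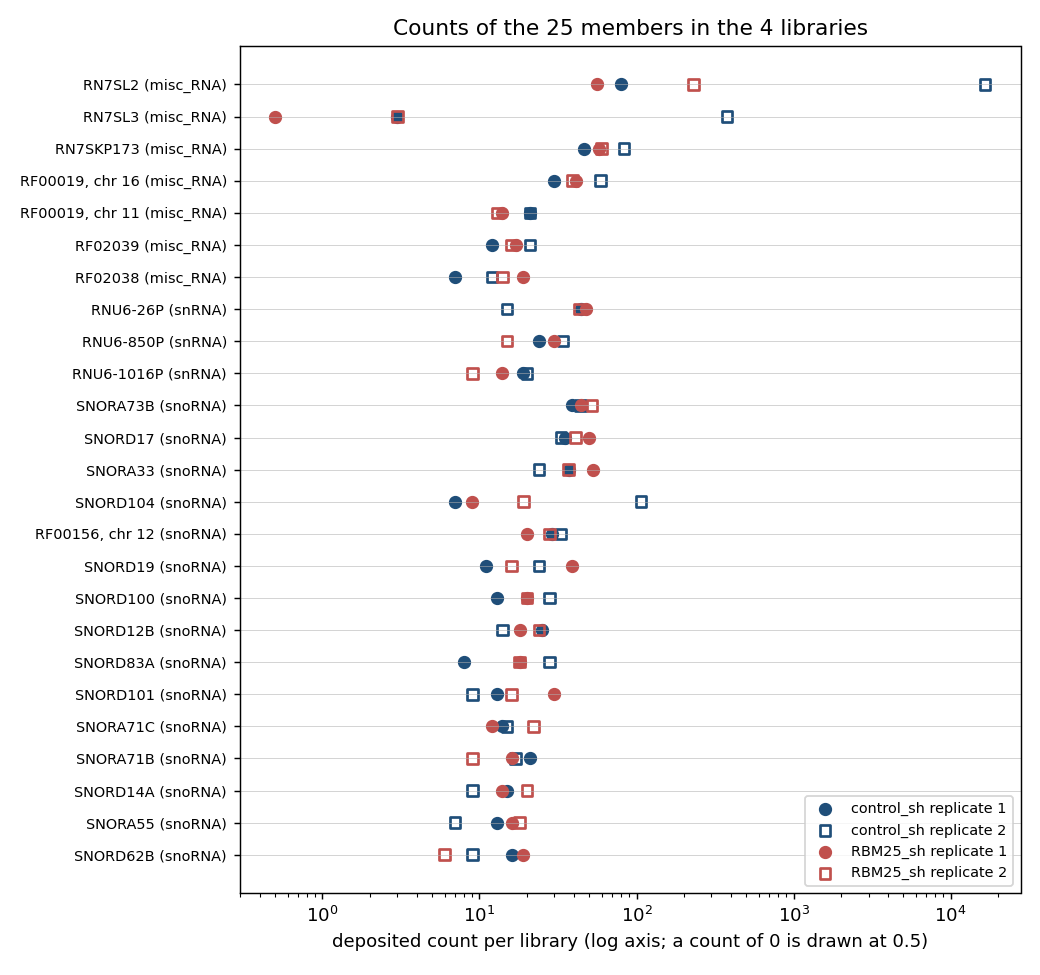
Deposited counts of the 25 members (log axis) in control_sh replicates 1 and 2 and RBM25_sh replicates 1 and 2; a count of 0 is drawn at 0.5. RN7SL2, RN7SL3 and SNORD104 have their highest point in control_sh replicate 2, while the other 22 members lie between 6 and 83 counts in every library.

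Across the groups none of the 24 members tested passed edgeR's quasi-likelihood test at an adjusted p of 0.05. Of all 16091 genes tested 3.05% passed, 0.653% as higher in RBM25_sh and 2.4% as lower. At an unadjusted p under 0.05 there was 1 member, RN7SL2, where 21.4% of all genes were. DESeq2 and limma-voom also called 0 members, with 2 and 0 at an unadjusted p under 0.05. RBM25_sh was above control_sh in 17 members and below it in 7. The median log2 fold change was 0.16, against -0.04 over all genes tested, of which 47.5% were above 0. For the 22 members other than RN7SL2, RN7SL3 and SNORD104, SEs ran from 0.40 to 0.74 on the log2 scale.

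Group ranges in CPM did not overlap for 9 of the 24 members tested (37.5%), below the 51.8% of all genes tested. Higher in both RBM25_sh libraries were SNORD101, SNORA33, SNORD17, SNORA55, SNORA73B and RF02038, and lower in both were RNU6-1016P, RF00156 and RF00019 on chromosome 11. None of these 9 passed the test.

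By role, the box C/D and box H/ACA members had the highest median of the 3 biotypes. Over the 15 snoRNA members 12 were above 0, with a median log2 fold change of 0.35. SNORD101 had 13 and 9 counts in control_sh and 30 and 16 in RBM25_sh, and its log2 fold change of 1.19 ± 0.62 was the highest of all members (edgeR adjusted p = 0.305). SNORA33, from the same host RPS12, had 37 and 24 counts in control_sh and 53 and 37 in RBM25_sh (0.69 ± 0.48, edgeR adjusted p = 0.447). The ranges in counts met at 37, while those in CPM did not overlap. SNORD100, the third RPS12 member, had 13 and 28 in control_sh and 20 and 20 in RBM25_sh, with overlapping groups and a log2 fold change of 0.12. RPS12 itself had 581.1 and 800.4 CPM in control_sh and 860.8 and 865.5 CPM in RBM25_sh, and its log2 fold change was 0.32 (edgeR adjusted p = 0.533).

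SNORA73B, a U17 snoRNA that takes part in the cleavage of pre-ribosomal RNA, was counted at a similar level in all libraries. It had 39 and 44 counts in the control_sh libraries and 44 and 52 in the RBM25_sh libraries. Its CPM were 2.46 ± 0.008 in control_sh and 3.13 ± 0.258 in RBM25_sh (SD, n = 2 each), and its log2 fold change was 0.35 ± 0.40 with an edgeR adjusted p of 0.670. SNORA73A, a near copy on chromosome 1 at 93.2% identity, was at 0 in all libraries. SNORD17 had 35 and 33 counts in control_sh and 50 and 41 in RBM25_sh, which did not overlap, with a log2 fold change of 0.56 ± 0.43 (adjusted p = 0.492, edgeR).

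SNORD19, in an intron of GNL3, which encodes the nucleolar protein nucleostemin, had 11 and 24 counts in control_sh and 39 and 16 in RBM25_sh. The groups overlapped, RBM25_sh replicate 1 being the highest. SNORD83A, in RPL3, had 8 and 28 counts in control_sh and 18 and 18 in RBM25_sh, so that the spread lay within the control group. SNORA55, in an intron of PABPC4, a gene for a poly(A)-binding protein, had 13 and 7 counts in control_sh and 16 and 18 in RBM25_sh, without overlap and with a log2 fold change of 0.88 ± 0.63 (adjusted p = 0.463, edgeR). SNORD14A, in RPS13, had 15 and 9 counts in control_sh and 14 and 20 in RBM25_sh, which overlapped.

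The remaining snoRNA members, most of them from non-coding hosts, were as scattered. SNORD12B, in ZFAS1, had 25 and 14 counts in control_sh and 18 and 24 in RBM25_sh. SNORA71C and SNORA71B share the host SNHG17, a non-coding RNA with a log2 fold change of -0.46, and went to opposite sides of 0, at 0.36 and -0.46. SNORA71C had 14 and 15 counts in control_sh and 12 and 22 in RBM25_sh, and SNORA71B had 21 and 17 in control_sh and 16 and 9 in RBM25_sh. Both pairs of groups overlapped in CPM. SNORD62B, in an intron of the protein-coding gene PRRC2B and with every 50-base stretch found in another small RNA gene, had 16 and 9 counts in control_sh and 19 and 6 in RBM25_sh. RF00156 on chromosome 12 had 29 and 33 counts in control_sh and 20 and 28 in RBM25_sh, with a log2 fold change of -0.23, and its lincRNA host AC078923.1 stood at -0.95 ± 0.38 (edgeR adjusted p = 0.189).

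All 3 snRNA members were U6 pseudogenes, and their median log2 fold change was -0.21. RNU6-850P, on the strand opposite to the mismatch repair family gene MSH5, had 24 and 34 counts in control_sh and 30 and 15 in RBM25_sh, which overlapped. RNU6-1016P, in an intron of SENP6, a SUMO protease gene, had 19 and 20 counts in control_sh and 14 and 9 in RBM25_sh, without overlap, and a log2 fold change of -0.61 ± 0.59 (adjusted p = 0.591, edgeR). Summed over the 3, the level was 5.50 and 3.85 CPM in control_sh and 6.16 and 4.27 CPM in RBM25_sh.

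The misc_RNA members other than 7SL had smaller differences than RN7SL2. RN7SKP173, a 7SK pseudogene in an intron of ACTR5, a gene of the INO80 chromatin remodelling complex, had 46 and 83 counts in control_sh and 58 and 60 in RBM25_sh. Both RBM25_sh values lay between the control_sh values, and the log2 fold change was 0.03 ± 0.40 (edgeR adjusted p = 0.977). RF00019 on chromosome 16 had 30 and 59 counts in control_sh and 41 and 39 in RBM25_sh, again inside the control range, at a log2 fold change of 0.01 ± 0.45 (adjusted p = 0.996, edgeR). All of its 50-base stretches occur in another small RNA gene. RF00019 on chromosome 11 had 21 and 21 counts in control_sh and 14 and 13 in RBM25_sh, without overlap, at -0.50 ± 0.55 (edgeR adjusted p = 0.651). RF02038 and RF02039, both opposite to SPRY4 on chromosome 5, had log2 fold changes of 0.94 ± 0.63 and 0.15 ± 0.57. RF02038 had 7 and 12 counts in control_sh and 19 and 14 in RBM25_sh, and RF02039 had 12 and 21 in control_sh and 17 and 16 in RBM25_sh, so that RF02038 alone of the pair had separate groups.

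**Figure D4:**
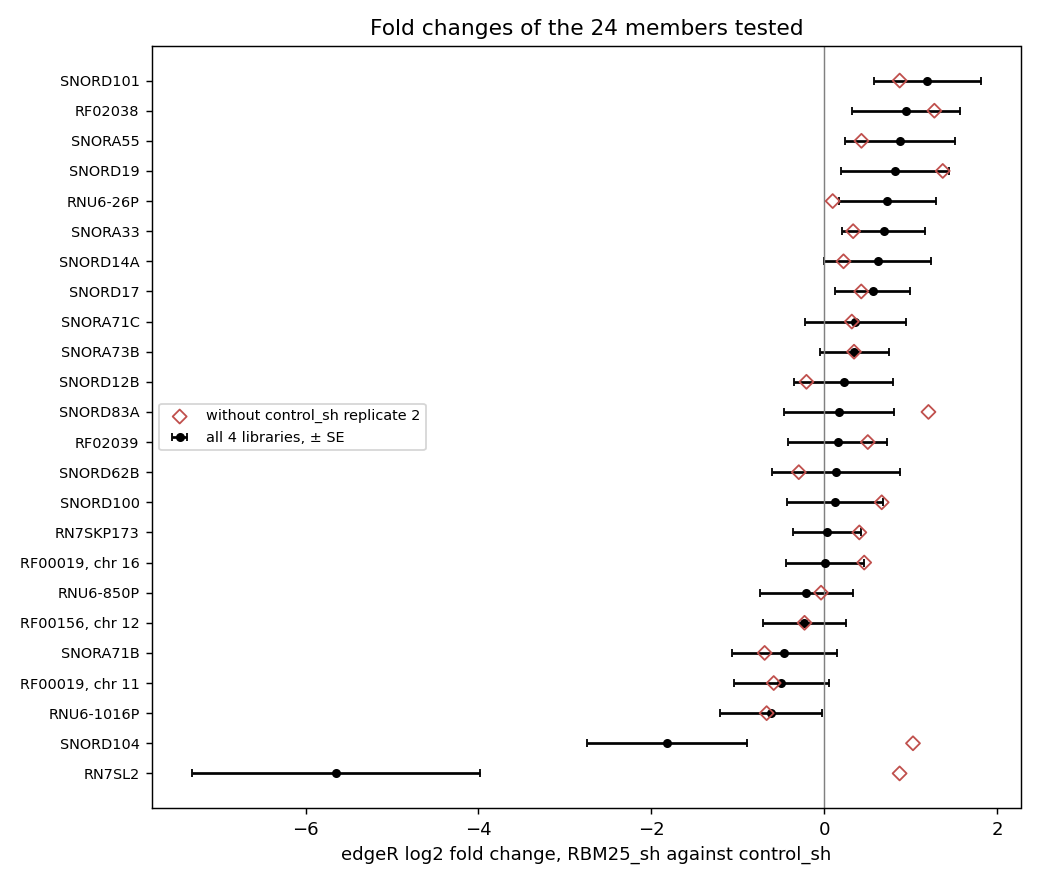
Log2 fold change of the 24 members tested, RBM25_sh against control_sh, from edgeR with all 4 libraries (black, ± SE) and without control_sh replicate 2 (open diamonds). RN7SL2 and SNORD104 move from -5.65 and -1.82 to 0.87 and 1.02 when that library is left out, and the other 22 lie between -0.61 and 1.19 in the full fit.

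Summed over all members of a biotype, the groups overlapped. The snoRNA members summed to 18.7 and 22.4 CPM in control_sh and 25.3 and 22.0 CPM in RBM25_sh. Without SNORD104, left out after its values were seen, they summed to 18.3 and 16.4 CPM and to 24.7 and 20.8 CPM, which did not overlap. The misc_RNA members summed to 12.6 and 954.6 CPM in control_sh and 13.7 and 24.0 CPM in RBM25_sh, and without RN7SL2 and RN7SL3 to 7.34 and 10.9 CPM and to 9.98 and 9.05 CPM. With 2 libraries against 2, the smallest two-sided p of an exact permutation test is 0.333, so these sums were not tested.

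Genes for the proteins that bind or make these RNAs were examined as 8 lists of 70 genes, all of which were tested. By edgeR 0 of the 70 passed, against 3.05% of all genes, with 9 at an unadjusted p under 0.05 (12.9%, against 21.4% of all genes), 1 called by DESeq2 and 0 by limma-voom. RBM25_sh was above control_sh in 48 (68.6%, against 47.5% of all genes), with a median log2 fold change of 0.29. With the GC trend of each library removed, edgeR called 23 of the 70 as higher and 3 as lower in RBM25_sh, where 14.5% of all genes were called higher and 14.5% lower.

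RNA polymerase III makes 7SL, 7SK, U6 and the Y RNAs, and the smallest adjusted p in its list was that of POLR3B, its second largest subunit. POLR3B had 20.8 and 13.7 CPM in control_sh and 37.5 and 32.0 CPM in RBM25_sh, without overlap, and a log2 fold change of 1.01 ± 0.32 (adjusted p = 0.113, edgeR). It was the gene called by DESeq2, with an adjusted p of 0.0463. POLR3GL, an alternative subunit of the same enzyme, had 9.49 and 8.20 CPM in control_sh and 5.49 and 3.76 CPM in RBM25_sh, at -0.93 ± 0.35 (edgeR adjusted p = 0.164). The 14 genes of the list had a median of 0.21, and 4 were called higher and 1 lower with the GC trend removed.

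SSB, the La protein that binds the ends of new polymerase III transcripts, had 87.8 and 58.5 CPM in control_sh and 148.9 and 113.0 CPM in RBM25_sh, without overlap (0.84 ± 0.31, edgeR adjusted p = 0.157). TROVE2, the Ro protein that binds Y RNAs, had 131.4 and 57.9 CPM in control_sh and 166.5 and 131.5 CPM in RBM25_sh, where control_sh replicate 1 and RBM25_sh replicate 2 were nearly equal. Both were called higher with the GC trend removed.

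Of 8 genes for SRP proteins and the SRP receptor 7 were above 0, with a median of 0.42. With the GC trend removed 4 were called higher, where 14.5% of all genes were. SRP19 had 17.6 and 15.6 CPM in control_sh and 30.1 and 24.1 CPM in RBM25_sh, at 0.70 ± 0.29 (edgeR adjusted p = 0.204). SRP14, which binds the Alu domain of 7SL, had 139.3 and 147.5 CPM in control_sh and 237.1 and 189.0 CPM in RBM25_sh, at 0.57 ± 0.27 (edgeR adjusted p = 0.261). Both had separate groups.

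All 4 core genes of the box C/D particle were above 0, with a median of 0.38, and 3 were called higher with the GC trend removed. NOP58 had 126.1 and 96.8 CPM in control_sh and 203.8 and 161.7 CPM in RBM25_sh (0.71 ± 0.29, edgeR adjusted p = 0.190), and NOP56 stood at 0.40 ± 0.27. Of 6 box H/ACA genes 4 were above 0, with a median of 0.33, and 1 was called higher with the GC trend removed. SHQ1, an assembly factor, had a log2 fold change of 0.56 ± 0.31, and NHP2, a core protein, of 0.55 ± 0.39.

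Among 10 genes of the Cajal body and of snRNP assembly 8 were above 0, with a median of 0.52 and 5 called higher with the GC trend removed. PHAX, the export adaptor of snRNAs, had 25.8 and 22.7 CPM in control_sh and 40.1 and 41.5 CPM in RBM25_sh (0.75 ± 0.28, edgeR adjusted p = 0.162). GEMIN5, which recognises snRNAs for the SMN complex, stood at 0.60 ± 0.27. The 19 genes of snRNA transcription and processing had a median of 0.10, with INTS7 at 0.65 ± 0.30 and INTS13 at 0.53 ± 0.31, both of the Integrator complex. With the GC trend removed, 3 of the 19 were called higher and 1 lower. The 7 partners of 7SK had a median of -0.10, and 1 was called higher and 1 lower with the GC trend removed. CCNT2, a cyclin of P-TEFb, stood at 0.69 ± 0.31, and HEXIM2, which inhibits P-TEFb together with 7SK, at -1.28 ± 0.58 (edgeR adjusted p of 0.234 and 0.237).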

How the data were processed

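RNA of 4 HCT116 libraries, 2 with a control shRNA and 2 with an shRNA against RBM25, was analysed as grouped by the sample titles. For each library the authors deposited whole-number counts and, in a second table, FPKM. Those deposited FPKM were found to be the counts over gene length and over 1 factor per library (0.951 to 1.10 times its total), and were used only to compare genes of different length. Named in the submitters' processing notes were Cufflinks 2.1.1, Cuffdiff 2.1.1, TopHat2 2.0.9 and Bowtie2 2.0.6. The counter, its strand setting and its treatment of reads with several matches were not given in the sources used here. Nor were any selection of poly(A) RNA, any removal of ribosomal RNA, any size selection and the genome build. All 58735 listed positions equal those of GENCODE release 29 on GRCh38, from which transcripts and overlaps were taken. Some sequences are not reported here.

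Counts were tested with edgeR 4.0.16 (R 4.3.3): filterByExpr defaults, TMM scaling and the quasi-likelihood F test with group as the only term, two-sided, with Benjamini-Hochberg adjustment over all 16091 genes tested. SEs were derived from the log2 fold change and F. The fit was tested on simulated data with a biological coefficient of variation (spread between replicates) of 0.16, below the 0.252 of these data. Among genes with under 50 mean counts it recovered 4 of 28 changed 2-fold and 25 of 28 changed 4-fold. With the smaller simulated spread, these numbers do not show how many such changes would be missed here. Alternatives were DESeq2 1.42.0, limma-voom (limma 3.58.1), other scalings, other filters, a replicate block, removal of each library's trend of log2 CPM on GC content, and leaving out each library. Intervals and the floor of 3 counts cover counting error only. Figures were drawn with matplotlib 3.10.9.

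Genes were named by rule: RBM25; called members; in each biotype the 4 members with the highest mean CPM; members at least 3 times above the next library, or at most 1 / 3 of it, with at least 20 counts in the highest; 38 abundant small RNAs; the members and non-members nearest the threshold; hosts of library-specific members; and up to 2 genes of each of 8 partner lists with the smallest adjusted p. The other members, their hosts, SCARNA13, RN7SL4P and RN7SL5P were added to the named genes once their values had been seen. The members, lists and rules were chosen with earlier results of these data known.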

Additional observations from a re-analysis of the deposited data

How the results depend on the processing

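The count of genes called by edgeR, 491 (105 higher, 386 lower), became 1438 without the low-count filter, 1085 by DESeq2, 4654 (2328 higher, 2326 lower) with the GC trend removed, and 204 to 2389 with 1 library left out. The replicate numbers are not stated to pair the libraries, and same-numbered libraries deviated together (correlation 0.47 across genes). A replicate block gave 5722 calls among 16091 genes, 2641 higher and 3081 lower. Of the 70 partner genes it called 22 higher and 4 lower, where the fit without it called 0 of them. The count of members called lower, 0, became 3 without the filter (RN7SL2, RN7SL3, SNORD104), 2 with the replicate block (RN7SL2, SNORD104), 1 with the GC trend removed (RN7SL2) and 0 to 3 with 1 library left out; that of members called higher, 0, was 0 to 1 (RNU6-26P without control_sh replicate 1). The members' median of 0.16 became 0.045 with library totals, 0.065 with the filter of 1 CPM (16 members), -2.81 for the 2 members with at least 200 counts, and -0.11 to 0.37 with 1 library left out. Directions turned for RN7SKP173 (-0.087) and RF00019 on chromosome 16 (-0.11) with library totals, for the latter also with the filter of 1 CPM (-0.0042) and the GC trend removed (-0.022), and for SNORD62B with limma-voom (-0.0098). With 1 library left out, ranges that cross 0 were -6.90 to 0.87 for RN7SL2, -2.69 to 1.02 for SNORD104, -0.26 to 0.40 for RN7SKP173, -0.060 to 0.72 for SNORA71C, -0.32 to 0.46 for RF00019 on chromosome 16, -0.40 to 1.20 for SNORD83A, -0.25 to 0.66 for SNORD100, -0.21 to 0.81 for SNORD12B, -0.95 to 0.79 for SNORD62B, -0.81 to 0.27 for RNU6-850P and -0.11 to 0.50 for RF02039; the lone library left in a group is then assumed to vary like the other group. The cause of these shifts was not tested. RN7SL3, the only member that overlaps no other gene, did not pass the filter. It was called lower without the filter and was also tested in 3 fits with 1 library left out. All of these fits kept control_sh replicate 2, which held 376 of its 382 counts. Its direction and any call of it therefore rest on that library and give no further support. With 6 to 83 counts per library in 22 members, small differences are not resolved.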

Other observations

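Among the small RNA genes below the threshold for members, 12 passed the low-count filter. RNU1-138P (ENSG00000206820), a U1 pseudogene at chr4:113420323-113420486 on the plus strand of GRCh38, outside other genes, had 12 and 12 counts in control_sh and 0 and 0 in RBM25_sh. Against a floor of 3 counts over the RBM25_sh group, its 24 control_sh counts gave a 7.26-fold lower level there. The counting error of the 24 was left out, so this is not a lower bound. RNU1-138P had an edgeR adjusted p of 0.0546, above 0.05, and none of its 50-base stretches occurs in another small RNA gene. It was singled out after its values were seen. A copy of RF00019 on chromosome 2 had 4 and 5 counts in control_sh and 16 and 17 in RBM25_sh, without overlap, a log2 fold change of 1.98 ± 0.68 and an edgeR adjusted p of 0.139.

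Other genes high in control_sh replicate 2 included SERF1A with 4 and 167 counts in the control_sh libraries and 3 and 3 in the RBM25_sh libraries, ATP5ME with 25, 523, 93 and 110 in the same order, and the non-coding snoRNA host SNHG9 with 5, 46, 8 and 13.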
